A study of Homo sapiens with 9 samples.

Results

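The comparison asked which genes differed between MCF10A cells that carried human deltaNp63beta and MCF10A cells that carried a vector only. It used 6 of the 9 libraries of the series, the 3 labelled deltaNp63beta and the 3 labelled vector, and took in every gene with a normalized value of at least 10 in at least 3 of these 6. Of 41857 Ensembl gene IDs in each file, 14621 met that rule. MCF10A is a non-tumorigenic epithelial line from human mammary gland, grown here in medium with serum, insulin, EGF, cholera toxin and hydrocortisone, and its genotype is labelled WT. Both groups, and the 3 deltaNp63alpha libraries to which some values are compared below, had received doxycycline at 500 ng/mL for 24 h, so the drug does not separate them. The RNA was polyadenylated, and the series describes biological triplicates. No library without doxycycline, no protein and no other cell line was analysed here, and whether a line is 1 clone is not given in the sources used here.

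TP63 encodes p63, a transcription factor that stratified and basal epithelia need. Its deltaN isoforms start at an internal promoter and lack the N-terminal activation domain of the TA forms, and alternative splicing at the 3′ end gives alpha, beta and other C-termini. The alpha form carries a sterile alpha motif and an inhibitory tail, which the beta form lacks. In epidermis and mammary basal cells p63 is known to hold up keratins, desmosomes and integrins of the basal layer, and later in stratification other factors, GRHL3, ZNF750 and KLF4 among them, drive cornification. Cells that undergo an epithelial to mesenchymal transition (EMT) lose E-cadherin and tight junctions and gain fibronectin, vimentin and the repressors of the ZEB and SNAI families.

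Values are the authors' normalized estimated counts per gene, given in the order of replicates 1 to 3. A change is the difference in mean log2(value + 1), deltaNp63beta minus vector, given with its SE, and adjusted p is from limma over all 14621 genes, called under 0.05 with 3 libraries a group. A gene is said to rise or fall only where it was called. The 6 libraries summed to between 22483100 and 23213900, and the step between low values put their depth before normalization at about 20435500 to 24494100 estimated fragments. Mitochondrially encoded RNA took between 3.36% and 3.86% of each. The first principal component held 59.0% of the variance and separated the groups. On the next, with 11.7%, deltaNp63beta replicate 1 lay at -38.3, apart from replicates 2 and 3 at 27.6 and 6.91. P-values measure the spread between these libraries.

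Of the 14621 genes, 3139 were higher with deltaNp63beta (21.5%) and 2740 lower (18.7%), so that 40.2% were called. The median change of all genes was 0.00 and the median SE 0.11. Changes of at least 2-fold were called in 594 genes upward (4.06%) and 521 downward (3.56%). At 4-fold these were 187 and 164 (1.28% and 1.12%), at 8-fold 86 and 41 (0.588% and 0.28%) and at 16-fold 28 and 13 (0.192% and 0.0889%). The groups did not overlap in 7541 genes (51.6%). The share called grew with the level of the gene, from 15.7% of genes with a mean under 50 to 65.9% of those over 5000. The counts given for gene lists below stand beside these shares. Of the genes tested, 85 were under the minimum of 10 in every vector library (64 called) and 111 in every deltaNp63beta library (85 called). Such genes entered the test through the other group alone. Beside those pointed out below, they include SNAI3 (EMT list), ITGA11 (integrins), MMP13 (matrix proteases), MFNG (Notch), WNT3A (Wnt), SLC6A14 (amino acid transporters), and CXCL10 and IL6 (chemokines and cytokines). In bulk RNA, fewer cells that express a gene and less RNA per cell cannot be told apart.

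**Figure D1:**
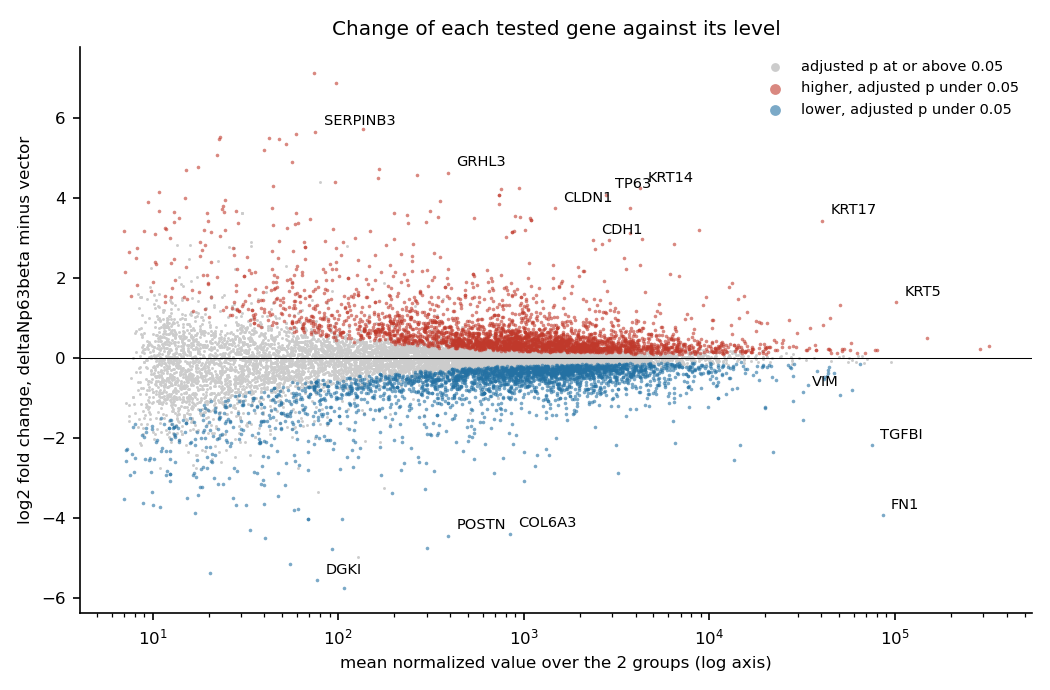
Each point is 1 of 14621 genes, with its mean normalized value over both groups on a log axis and its log2 fold change (deltaNp63beta minus vector) on the vertical axis. Red and blue points passed an adjusted p of 0.05 upward and downward. KRT5 and KRT17 lie far to the right among the genes that rose, and FN1 and TGFBI among those that fell.

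TP63 (ENSG00000073282, GRCh38 chromosome 3, 189631416 to 189897279, plus strand) checked the labels only for deltaNp63beta against vector. The gene did not tell deltaNp63beta from deltaNp63alpha libraries (adjusted p = 0.479 in limma). It stood at 316, 332 and 259 in the vector libraries and 6719, 4183 and 4870.0 in the deltaNp63beta libraries, a change of 4.09 ± 0.16, adjusted p = 3.66e-07. Every deltaNp63beta library lay far above every vector library, and the gene-level value does not separate the transgene from the cells' own TP63. Its paralog TP73, a related transcription factor, rose from 42.8, 45.2 and 41.5 to 441, 308 and 319 (a change of 3.0 ± 0.18, adjusted p = 3.16e-06). MDM2, a ubiquitin ligase, rose by 0.69 ± 0.06 in 3 libraries that did not overlap with vector. FBXW7, a substrate receptor of another ubiquitin ligase, rose by 0.33 ± 0.11 but was not called under 8 other settings, among them leaving out vector replicate 1 or 3 or deltaNp63beta replicate 1 or 3 (adjusted p between 0.0562 and 0.111).

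CDKN1A, the cell cycle inhibitor p21, fell from 7115, 6894 and 6652 to 4173, 5081 and 4846 (-0.56 ± 0.07, adjusted p = 0.000332). BTG2, an antiproliferative gene, rose (365, 337 and 368 with vector and 1236, 1129.9 and 1272 with deltaNp63beta, 1.76 ± 0.08), and so did SFN (1.48 ± 0.04), the 14-3-3 sigma protein of squamous cells, and PERP (1.77 ± 0.04), a desmosomal protein.

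The libraries carried the markers of mammary basal epithelium throughout. Of 10 basal markers, 8 rose and LAMB3 fell, and their summed level was between 163884 and 173029 with vector and between 362613 and 375558 with deltaNp63beta. TP63, which the deltaNp63beta cells carried by design, is among the 8 and in the sum, so its rise was set in advance. EGFR, which encodes the receptor that the medium's growth factor binds, was the member not called (-0.00). Luminal markers rose in 5 and fell in 1 of 10 tested, with EPCAM at 191, 162 and 165 with vector and 1339.8, 1495 and 1437 with deltaNp63beta and CD24 and FOXA1 higher by 1.14 and 1.75. KRT19 fell, and ELF5, which marks luminal progenitors, was listed at 0 in all 6 libraries. Markers of other cell types were low or partial. Of 5 leukocyte markers tested, 2 rose and 3 fell, and of 7 fibroblast markers, 3 rose and 2 fell. Of 4 endothelial and 6 neuroendocrine markers tested, 3 of each fell and none rose. The leukocyte list summed to between 1873 and 2091 with vector and between 1242 and 1373 with deltaNp63beta, with TYROBP at 0 and PTPRC and CD3E under 10 in every library. The endothelial list summed to between 217 and 284 and then between 133 and 175, with CDH5 and CLDN5 under 10. Fibroblast markers summed to between 11436 and 11872 and then between 13066 and 14112, most of it FBLN1, with PDGFRA and COL3A1 under 10. COL1A1 rose (0.52 ± 0.11) while DCN fell (-2.87 ± 0.12). Melanocyte TYR and DCT were at 0, and the neuroendocrine list, with INSM1 and CHGA under 10 in every library, summed to between 623 and 838 and then between 217 and 356. Myoepithelial markers summed to between 1268 and 1452 with vector and between 2843 and 3311 with deltaNp63beta, a difference carried by TAGLN (791, 912 and 945 with vector and 2523, 2931 and 2741 with deltaNp63beta), while CNN1 stayed under 10 and MYLK fell (-1.63). The part of these cells in any result was not tested.

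Most genes of cell to cell junctions were higher. Desmosomes anchor keratin filaments at the membrane, and of 11 desmosome genes tested, 10 rose and none fell, with a median of 1.16. The desmosomal cadherins DSG3 (896, 1057 and 955 in the vector libraries and 7817, 7532 and 7706 in the deltaNp63beta libraries) and DSC3 (1288, 1363 and 1300.0 in the vector libraries and 4656, 3865 and 4285 in the deltaNp63beta libraries) rose by 2.99 ± 0.06 and 1.69 ± 0.07. In each the lowest deltaNp63beta library was well above the highest vector library. The linker proteins followed, desmoplakin (DSP) by 1.16 ± 0.05, periplakin (PPL) by 2.02 ± 0.07 and plakoglobin (JUP, named after its values were seen) by 1.19 ± 0.06. DSG2, the desmosomal cadherin of simple epithelia, was the member not called, at 0.10 (adjusted p = 0.0541). DSG1, DSG4, DSC1 and PKP1 did not reach the minimum value and were not tested.

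Tight junction genes, which seal the space between epithelial cells, rose in 14 of 19 cases and fell in none, with a median of 1.63. CLDN1, the claudin of the epidermal barrier (ENSG00000163347, GRCh38 chromosome 3, 190305701 to 190322475, minus strand), stood at 218, 201 and 187 in the vector libraries and 2796, 2690.1 and 2771 in the deltaNp63beta libraries (3.76 ± 0.08, adjusted p = 9.42e-09). The deltaNp63beta libraries lay close to each other and far above every vector library. CLDN4 and CLDN7 went from 18.6, 29.9 and 40.7 to 274, 298 and 226 (3.18 ± 0.28) and from 202, 172 and 148 to 1562, 1569 and 1537 (3.16 ± 0.11). The values of CLDN7 stand on 2 gene IDs alike. Occludin (OCLN, 18.4, 27.5 and 46.1 with vector and 415, 367 and 327 with deltaNp63beta), the polarity protein CRB3 (38.4, 37 and 60.0 with vector and 289, 297 and 229.7 with deltaNp63beta) and the plaque protein TJP3 (7.44, 6.51 and 15.3 with vector and 54.5, 52.9 and 150.1 with deltaNp63beta), all 3 named after their values were seen, rose by 3.64 ± 0.30, 2.59 ± 0.22 and 2.92 ± 0.49. The 3 deltaNp63beta libraries of TJP3 were uneven, though each was above every vector library. MARVELD3, F11R and LSR, further membrane proteins of these junctions, rose by 2.85, 1.01 and 1.01. The scaffold TJP1 (ZO-1), which adherens junctions also use, had a change of -0.16 (adjusted p = 0.166). With equal totals 1 tight junction gene was called lower.

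Classical cadherins split by type. E-cadherin (CDH1) stood at 652, 467 and 505 in the vector libraries and 3898, 4256 and 4309 in the deltaNp63beta libraries (2.95 ± 0.11, adjusted p = 3.37e-07), and P-cadherin (CDH3) rose by 2.11 ± 0.08. N-cadherin (CDH2), the cadherin of mesenchymal cells, fell from 1734, 1743 and 1720.4 to 869.9, 830.3 and 869 (-1.02 ± 0.06), and CDH4 and CDH11 fell (-0.40 and -1.57). NECTIN1 rose by 1.66 ± 0.07 while NECTIN3 fell (-0.95 ± 0.09). Of 15 cadherin, catenin and nectin genes, 8 rose and 5 fell. Among 8 gap junction genes, 4 rose and none fell, with the epidermal connexins GJB2 (1.08) and GJB5 (0.42) among the rises. A gap junction gene was called lower with equal totals, after quantile normalization, and without vector replicate 2 or deltaNp63beta replicate 1 or 3 (1 of 8 in each).

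**Figure D2:**
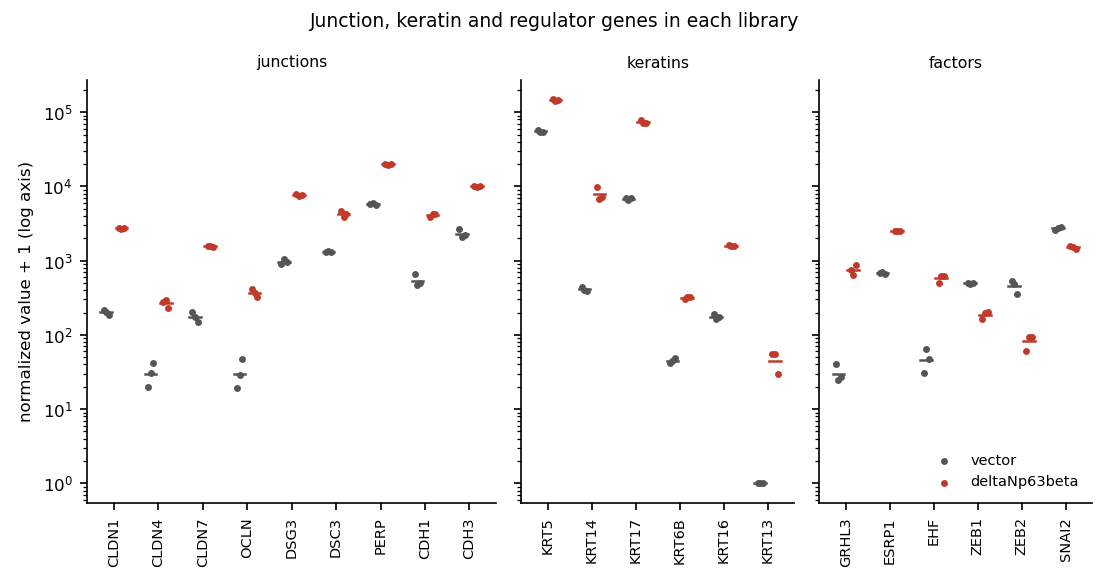
Normalized value + 1 on a log axis for each of the 3 vector (grey) and 3 deltaNp63beta (red) libraries, with a bar at the mean of the logs. Libraries of a group lie close together, and the groups do not overlap for any gene shown; ZEB1, ZEB2 and SNAI2 are lower with deltaNp63beta and the other genes higher.

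Keratins, the intermediate filaments of epithelia, moved by subset. Of 8 type I keratins tested, 6 rose and 1 fell (median 2.33), and of 9 type II keratins, 4 rose and 2 fell (median 0.50). KRT5 and KRT14 pair in the basal layer. KRT14 rose from 447, 403 and 383 to 9886, 6866 and 7275 (4.26 ± 0.13) and KRT5, already abundant, from 57839, 53800.5 and 54752 to 149719, 143399 and 147812 (1.41 ± 0.04). KRT17, a keratin of wounded and appendage epithelium, stood at 7029.5, 6545 and 6960.1 in the vector libraries and 78838, 72325 and 72348 in the deltaNp63beta libraries (3.44 ± 0.05, adjusted p = 1.24e-09). Its wound-associated partners KRT16 (193, 163 and 173 with vector and 1629, 1591 and 1573 with deltaNp63beta) and KRT6B (40.5, 43.2 and 47.8 with vector and 304, 322 and 326 with deltaNp63beta) rose by 3.18 ± 0.09 and 2.83 ± 0.15, and KRT6A by 0.84 ± 0.03. KRT13, a keratin of mucosal squamous epithelium, was listed at 0 in every vector library and at 54, 54.7 and 28.6 with deltaNp63beta. The simple-epithelial keratins did not follow. KRT18 rose by 0.33, KRT8 was at 0.03 (adjusted p = 0.642) and KRT19 fell from 105, 146 and 160.3 to 72.3, 23.9 and 18.8. KRT80 fell from 563, 558 and 606 to 74.4, 91.5 and 77.4 (-2.82 ± 0.13). KRT7 was at -0.13 ± 0.04, called here but not under 7 other settings (adjusted p between 0.0502 and 0.155). Several keratins, KRT6A, KRT6B, KRT14, KRT16 and KRT17 among them, resemble each other closely in sequence, so fragments could be divided between them. Without vector replicate 1, 2 or 3 or deltaNp63beta replicate 1, 1 type II keratin was called lower.

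Genes of the cornified envelope, the crosslinked shell of terminally differentiated keratinocytes, rose in 9 and fell in 2 of 14 tested, with a median of 1.36. Of the 14, 4 were under the minimum in every vector library, so they entered the test through deltaNp63beta. TGM1, the crosslinking transglutaminase, went from 93.6, 80.9 and 69.4 to 1373, 1283 and 1525 (4.09 ± 0.13). SPRR1B, a small proline-rich precursor, went from 2.73, 1.1 and 1.03 to 109, 114 and 86.5 (5.36 ± 0.42), and the cystatin CSTA rose by 2.33 ± 0.12. ECM1 and LYPD3 fell (-1.01 and -0.68). Filaggrin (FLG), the keratin-bundling protein of the granular layer, was at 0.09 (adjusted p = 0.814), and loricrin was among 18 members not tested for low values. With a pseudocount of 10, which weighs low values less, the change of SPRR1B was 3.28.

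Proteases that shed and process the barrier, and most of the inhibitors that changed, were higher. KLK5 (31.6, 62.2 and 38.7 with deltaNp63beta), KLK7 (20.7, 26.3 and 18.5) and KLK10 (60.3, 79.2 and 94.6), serine proteases of desquamation, were at 2.95 or below in every vector library, and with KLK14 they passed the minimum only through deltaNp63beta. The membrane serine proteases matriptase (ST14, 1387, 1317 and 1471 in the vector libraries and 6730.4, 7069 and 7286 in the deltaNp63beta libraries) and prostasin (PRSS8) rose by 2.34 ± 0.06 and 1.62 ± 0.10. Their inhibitor SPINT2 rose by 1.02 ± 0.04. Of 21 protease inhibitors, 12 rose and 3 fell, and SERPINB3 and SERPINB13 among the 12 were under the minimum in every vector library. SERPINB3, a squamous cell serpin, went from 4.6, 3.32 and 0 to 183, 133 and 128 (5.67 ± 0.62), SERPINB2 (PAI-2) from 9.15, 13.2 and 16.5 to 367, 308 and 266 (4.52 ± 0.26), and the elastase inhibitors PI3 and SLPI rose by 3.86 ± 0.11 and 2.85 ± 0.09. SERPINB13, named after its values were seen, went from 1.36, 0 and 1.64 to 101, 68.8 and 80.3. With a pseudocount of 10 the changes of KLK5, KLK7, KLK10, SERPINB3 and SERPINB13 were 2.35, 1.43, 2.94, 3.65 and 3.08. SERPINE2, which inhibits thrombin and plasminogen activators, fell (-2.41).

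Of 13 S100 calcium-binding genes, 6 were higher and 5 lower, with a median of 0.05. The squamous and inflammatory members S100A8 (50.8, 35.1 and 41.5 with vector and 871, 596 and 531 with deltaNp63beta), S100A9 (174, 141 and 134 with vector and 2089, 1668 and 1514 with deltaNp63beta) and S100P (39.1, 29.7 and 37.2 with vector and 493, 452 and 358 with deltaNp63beta) rose by 3.92 ± 0.21, 3.54 ± 0.14 and 3.58 ± 0.18, S100A8 having been named after its values were seen. S100A14 and S100A2 rose by 1.89 and 1.01. S100A4, a marker of mesenchymal cells, fell from 2195, 2159 and 2191 to 486, 429 and 450.1 (-2.26 ± 0.07), and S100A6 and S100A13 fell (-1.21 and -0.94). Barrier lipid genes did not move together (5 higher and 3 lower of 15, against 4 and 6 with equal totals, 5 and 6 after quantile normalization, and 3 higher without vector replicate 2). Among them NIPAL4, a transporter mutated in ichthyosis, rose from 18.2, 15.5 and 27.7 to 619, 391 and 522.

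Many of these genes lie side by side. In the epidermal differentiation complex (GRCh38 chromosome 1, 151982915 to 153632039), 18 genes were tested, 9 rose and 5 fell. The type I keratin cluster (chromosome 17, 40654665 to 41640199) held 7 tested, 5 higher and 1 lower, and the clade B serpin cluster (chromosome 18, 63476761 to 64019779) 6 tested, 4 higher and none lower. In the IL1 cluster (chromosome 2, 112773915 to 113134016) all 3 genes tested rose. The clusters were picked with results known, and genes of a cluster can share sequence.

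Transcription and splicing factors of epithelia rose in 15 and fell in 1 of 23 tested, with a median of 0.70. The 15 include TP63 itself, whose rise was set by the design. GRHL3, a grainyhead factor of barrier formation (ENSG00000158055, GRCh38 chromosome 1, 24319322 to 24364482, plus strand), stood at 39.2, 23.5 and 25.8 in the vector libraries and 751, 630.2 and 864 in the deltaNp63beta libraries (4.64 ± 0.21, adjusted p = 7.88e-07). The splicing regulator ESRP1, which sets epithelial exon choice, went from 673, 710.2 and 655 to 2488, 2497 and 2513 (1.88 ± 0.06). The ETS factor EHF (29.3, 64.1 and 46.1 with vector and 503, 616 and 616 with deltaNp63beta) and ZNF750 (6.21, 0.805 and 0.754 with vector and 70.6, 28.2 and 39.7 with deltaNp63beta), named after their values were seen, rose by 3.67 ± 0.26 and 3.96 ± 0.68. ZNF750 was under the minimum in every vector library, and its change was 2.12 with a pseudocount of 10. KLF4 was the member that fell (-0.68 ± 0.16).

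Factors and structural genes of EMT went the other way, with 12 lower and 2 higher of 18 and a median of -0.75. ZEB2 (524, 483 and 355 with vector and 60.5, 93.6 and 92.1 with deltaNp63beta), ZEB1 (492, 489 and 503 with vector and 160.4, 197 and 202 with deltaNp63beta), SNAI2 (2612, 2713 and 2844 with vector and 1589, 1541 and 1429 with deltaNp63beta) and SNAI1 (41.4, 38.8 and 37.4 with vector and 7.86, 16.4 and 14.7 with deltaNp63beta) are repressors of E-cadherin, and all 4 were named after their values were seen. They changed by -2.46 ± 0.21, -1.41 ± 0.12, -0.84 ± 0.06 and -1.58 ± 0.37, and no deltaNp63beta library reached the lowest vector library. Vimentin (VIM) fell from 41424, 41867 and 40482 to 22134, 23594 and 22968 (-0.85 ± 0.04), and stayed abundant. The contractile genes TAGLN and MYL9 were the ones that rose, by 1.63 and 0.89.

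Stretches before the start of 5 of these genes are shown because they hold the letters that the ZEB and SNAI repressors (CACCTG), AP-1 (TGANTCA) and TEAD factors (GGAATG) are known to bind, or a TATA box (TATAAA). They are RefSeq sequence of GRCh38.p14, 5′ to 3′ on the gene's strand, and capitals mark matches on either strand (CAGGTG is CACCTG read from the other strand). GRHL3 is chr1:24319326-24319351 on the plus strand, SPRR1B chr1:153030965-153031128 plus, CLDN4 chr7:73830746-73830851 plus, SERPINB2 chr18:63887593-63887690 plus and CCN2 chr6:131951389-131951551 minus.
GRHL3: ttaacagctgCACCTGttgaggtata
SPRR1B: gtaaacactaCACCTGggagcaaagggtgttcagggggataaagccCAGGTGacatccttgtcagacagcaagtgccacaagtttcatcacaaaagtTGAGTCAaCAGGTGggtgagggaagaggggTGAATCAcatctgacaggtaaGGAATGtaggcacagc
CLDN4: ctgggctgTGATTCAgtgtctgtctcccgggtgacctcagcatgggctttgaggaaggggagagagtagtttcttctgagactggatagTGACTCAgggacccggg
SERPINB2: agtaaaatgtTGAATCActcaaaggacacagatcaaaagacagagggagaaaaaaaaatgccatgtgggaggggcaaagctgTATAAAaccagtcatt
CCN2: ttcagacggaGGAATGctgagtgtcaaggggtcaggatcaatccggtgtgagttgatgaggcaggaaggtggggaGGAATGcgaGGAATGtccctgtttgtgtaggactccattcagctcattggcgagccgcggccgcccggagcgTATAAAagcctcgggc

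The SPRR1B stretch holds 3 matches to CACCTG and 2 to TGANTCA, and no match overlaps another. Over windows from 250 bases before to 50 after the start, which the table gave for 10559 of the tested genes, CACCTG occurred in 18.3% of all, in 32.9% of the 395 genes called at least 2-fold higher and in 19.8% of the 349 called at least 2-fold lower. TGANTCA occurred in 4.68%, 13.2% and 8.02% of the same sets, and in 27.3% of the 44 genes at least 8-fold higher. GGAATG occurred in 10.8%, 8.61% and 14.6%, and TATAAA in 5.69%, 9.62% and 14%. In the 8-fold set CACCTG occurred in 36.4%, GGAATG in 11.4% and TATAAA in 22.7%. A core of paired p53-family half-sites, also searched, occurred in 3.44%, 5.32% and 4.01%, and in 2.27% of the 8-fold set. These shares were not tested. The sets also differ in composition, with a median GC content of 65.3% over all, 63% and 64.3% in the 2-fold sets and 55.5% in the genes at least 8-fold higher. A match is a description of the letters only.

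The largest losses in value were in the matrix genes FN1 and TGFBI. Of 26 matricellular proteins and related secreted glycoproteins, 17 fell and 1 rose, with a median of -0.98. Fibronectin (FN1, ENSG00000115414, GRCh38 chromosome 2, 215360440 to 215436172, minus strand) stood at 161019, 162782 and 159900 in the vector libraries and 10055, 10531 and 11422 in the deltaNp63beta libraries (-3.92 ± 0.05, adjusted p = 7.81e-10). TGFBI, a matrix protein named for its response to TGF-beta, fell from 121481, 122853 and 125347 to 26139, 28054 and 28472 (-2.16 ± 0.04), and periostin (POSTN) from 708, 746 and 791 to 22.7, 29.8 and 56.3 (-4.43 ± 0.28). In each the libraries of a group agreed closely beside the gap between groups, POSTN less so. THBS1 (thrombospondin) fell (-1.23), and the small proteoglycan decorin (DCN) at -2.87. The YAP and TEAD targets CCN1 (5079.8, 5207 and 5227 with vector and 1907, 1932 and 1859.9 with deltaNp63beta) and CCN2 (1608, 1649.7 and 1758 with vector and 312, 344 and 336 with deltaNp63beta) fell with them. Fibulin 1 (FBLN1) was the member that rose (0.43 ± 0.04).

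Collagens fell in 10 and rose in 5 of 20 cases (3 without vector replicate 3), with a median of -0.62. Type VI collagen, a beaded filament near basement membranes, lost COL6A3 (1607, 1829.8 and 1367 in the vector libraries and 72, 70.2 and 84.6 in the deltaNp63beta libraries, -4.38 ± 0.13, adjusted p = 6.75e-08) and, with smaller changes, COL6A1 (-1.02 ± 0.09) and COL6A2 (-1.78 ± 0.42), which were named after their values were seen. The basement membrane chains COL4A1 and COL4A2 fell (-0.98 and -0.71), while COL4A6 (0.31 ± 0.06), which pairs with COL4A5, rose. COL17A1, the hemidesmosomal collagen of basal cells, rose from 7496, 7550.1 and 8018 to 12342, 13273 and 13359 (0.76 ± 0.05). Named for the size of their changes and not from this list, the prolyl hydroxylase subunits P4HB and P4HA3 also changed. P4HB fell (-1.06) and P4HA3 fell (-3.17).

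Laminins and integrins went both ways. Laminin-332, the anchor of hemidesmosomes, lost LAMB3 (-0.51 ± 0.05) while LAMA3 rose (0.31 ± 0.05), and LAMB1 rose from 7129, 7180.3 and 7189 to 14354, 13638 and 13617 (0.95 ± 0.04). Of 18 integrins, 7 rose and 6 fell, with a median of 0.17. The hemidesmosomal pair ITGA6 (0.95 ± 0.04) and ITGB4 (0.64 ± 0.06) rose, and ITGA5, the fibronectin receptor subunit, fell (-0.73). Plectin (PLEC), which ties hemidesmosomes to keratin, fell from 66712, 64658 and 66964 to 31766, 35163 and 38821 (-0.91 ± 0.06). Among 17 matrix proteases and their inhibitors, 6 rose and 7 fell. TIMP1, the metalloprotease inhibitor, dropped from 37282, 36783 and 36434 to 7374, 7658 and 6678 (-2.35 ± 0.05), MMP28 went from 55.5, 44 and 47.9 to 622, 591 and 413 (3.42 ± 0.19) and MMP14, the membrane-bound collagenase, rose by 0.78.

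**Figure D3:**
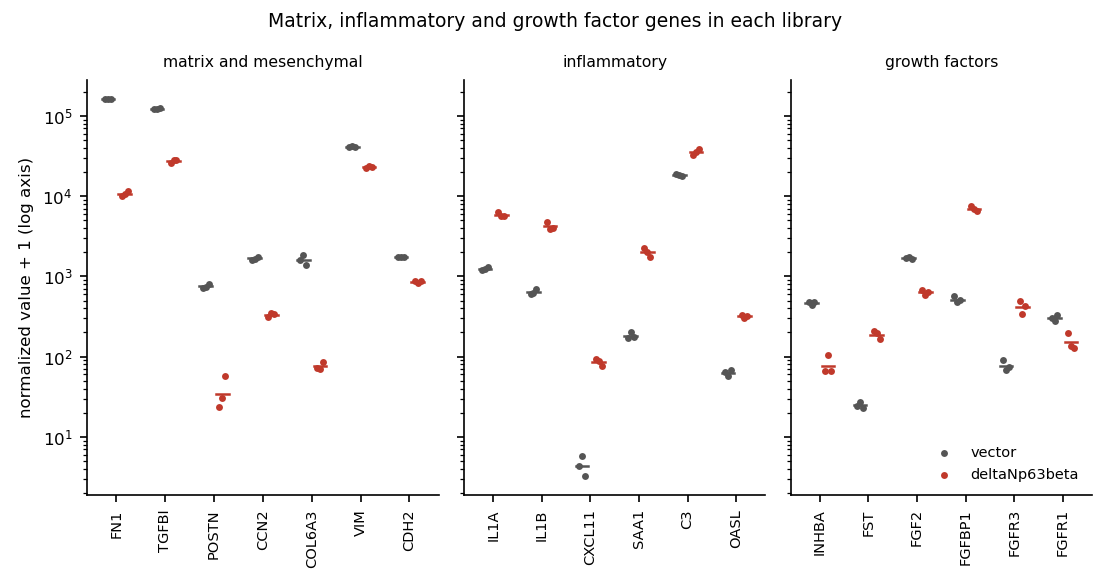
Normalized value + 1 on a log axis in each vector (grey) and deltaNp63beta (red) library for matrix and mesenchymal, inflammatory and growth factor genes, with a bar at the mean of the logs. The 7 matrix and mesenchymal genes are lower with deltaNp63beta and the 6 inflammatory genes higher, while the growth factor genes go both ways; no gene shown has overlapping groups.

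**Figure D4:**
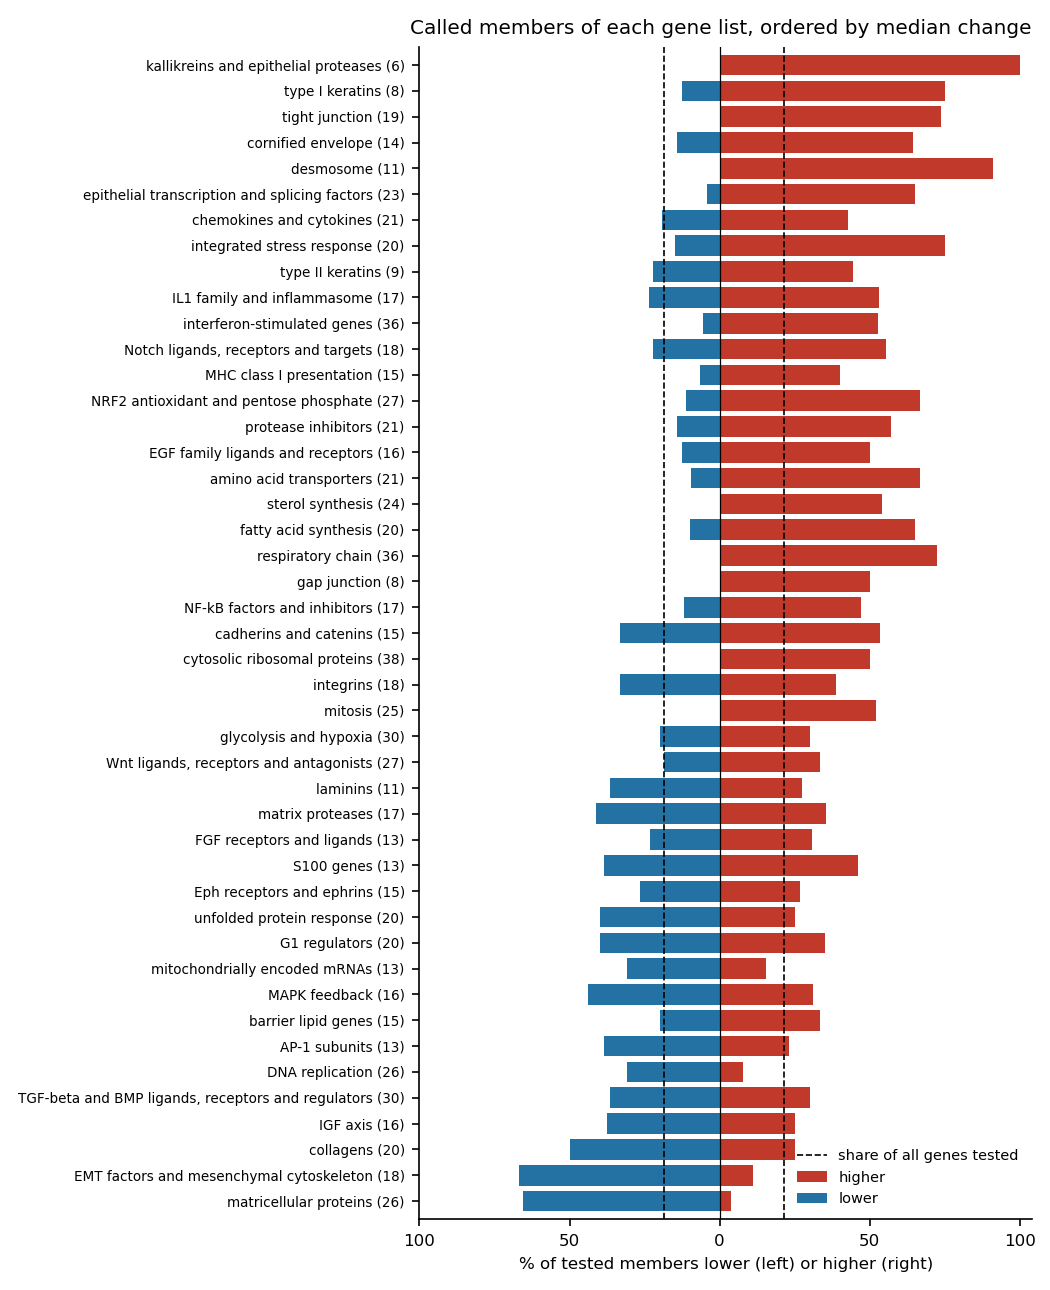
For each gene list, the percent of its tested members called higher (red, right) and lower (blue, left) with deltaNp63beta, ordered by median change, with the number tested in brackets. Dashed lines give the shares over all 14621 genes, 21.5% higher and 18.7% lower. Kallikreins, type I keratins, tight junctions, the cornified envelope and desmosomes stand at the top. Of these, 4 of 6 kallikrein, 1 of 8 type I keratin and 4 of 14 cornified envelope members entered the test through deltaNp63beta alone. In the EMT list 1 of 18 entered through vector alone, so the order is a description. Matricellular proteins, EMT genes and collagens stand at the bottom.

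Signalling genes changed at the level of ligands, receptors and feedback. TGF-beta and BMP genes fell in 11 and rose in 9 of 30, but the ligand INHBA (activin A) fell from 485, 439 and 472 to 64.6, 105 and 65.9 (-2.59 ± 0.19, adjusted p = 1.23e-05) while its inhibitor follistatin (FST) rose from 23.4, 26.1 and 22.2 to 206, 195 and 164 (2.92 ± 0.20, adjusted p = 6.91e-06). TGFBR2, the type II receptor, fell (-0.56) and SKIL, a feedback inhibitor of SMADs, fell (-1.40). ID3, a BMP target, rose by 1.53 ± 0.07. In the FGF family, FGFR3 (90.8, 67.5 and 72.9 with vector and 493, 338 and 430.1 with deltaNp63beta), the receptor of keratinocytes, and FGFBP1 (561, 473 and 501 with vector and 7581, 6896 and 6452 with deltaNp63beta), which releases FGF from matrix, rose by 2.43 ± 0.18 and 3.77 ± 0.08. FGFR1 and FGF2, abundant in mesenchyme, fell, with changes of -1.0 and -1.42. Of 13 FGF genes 4 rose and 3 fell.

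EGF receptor ligands divided as well, 8 higher and 2 lower of 16 tested in the family. AREG (16533, 16928 and 16577 with vector and 10387, 10307 and 8847 with deltaNp63beta) and EREG fell (-0.76 and -0.80), and HBEGF and EPGN rose by 1.52 and 1.18. Feedback genes of the MAPK cascade fell in 7 and rose in 5 of 16 (3 without vector replicate 3 or deltaNp63beta replicate 2 or 3). The phosphatases DUSP1, DUSP4 and DUSP6 fell (-0.92, -0.88 and -0.61), and the inhibitor SPRY4 fell (-1.12). FOSL1, the AP-1 subunit that ERK stabilizes, fell from 2521, 2715 and 2718 to 1176, 1264 and 1246 (-1.11 ± 0.06), and ATF3 fell (-1.27), while JUN rose by 0.37. Of 13 AP-1 subunits, 5 fell and 3 rose, and 3 fell without vector replicate 3 or deltaNp63beta replicate 1.

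Notch genes rose in 10 and fell in 4 of 18, with a median of 0.42. HES2, a HES family member of the list, rose by 3.20 ± 0.13 (207, 162 and 229 with vector and 1978, 1728 and 1763 with deltaNp63beta). The targets NRARP (102, 112 and 102 with vector and 537, 433 and 514 with deltaNp63beta) and HES1 (2045, 1843 and 2224 with vector and 3860.2, 3945 and 3725 with deltaNp63beta) rose by 2.22 ± 0.13 and 0.92 ± 0.07, and the receptor NOTCH1 by 0.97 ± 0.05. NOTCH2, LFNG, MAML2 and the DNA-binding partner RBPJ fell. In the Wnt family (9 higher and 5 lower of 27), the antagonist DKK1 fell from 6041, 5480.2 and 5437 to 771, 893 and 683 (-2.86 ± 0.09) and the ligand WNT5A fell (-1.07). IGF axis genes were lower in 6 and higher in 4 of 16. IRS1, the adaptor of insulin and IGF1 receptors, fell from 1396, 1235 and 1272 to 382, 356 and 336 (-1.86 ± 0.08), and IGFBP3 from 181, 193 and 195 to 30.6, 33.4 and 35.8. IGFL1, a secreted protein of skin under the minimum in every vector library, rose from 5.48, 2.21 and 5.18 to 254, 296 and 252 (5.73 ± 0.33). Eph receptors and ephrins were even, 4 and 4 of 15, with EFNB1 up by 1.17 and EFNB2 at -1.26.

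Inflammatory genes were higher on balance. The alarmin cytokines IL1A (1187, 1224 and 1318 in the vector libraries and 6343, 5587 and 5699 in the deltaNp63beta libraries, 2.24 ± 0.06, adjusted p = 5.62e-08) and IL1B (596, 617 and 693 in the vector libraries and 4767, 3890.2 and 3976 in the deltaNp63beta libraries, 2.72 ± 0.09, adjusted p = 1.2e-07) rose, as did CASP1 (1.34 ± 0.09), which cleaves IL1B. Their receptor IL1R1 fell from 756, 801 and 677 to 241, 266 and 254 (-1.55 ± 0.10). The receptor antagonist IL1RN, named after its values were seen and under the minimum in every vector library, went from 2.7, 3.35 and 1.05 to 33.6, 40.2 and 62. Of 17 genes of the IL1 family and inflammasome, 9 rose and 4 fell, or 2 without vector replicate 1 or 3 or deltaNp63beta replicate 3. Chemokine and cytokine genes rose in 9 and fell in 4 of 21, or 2 without vector replicate 1 or 3. CXCL11, a ligand of CXCR3 under the minimum in every vector library, went from 3.34, 4.85 and 2.28 to 93, 86.7 and 75.8 (4.30 ± 0.37), CXCL16 and the apoptosis ligand TNFSF10 rose by 1.55 and 2.90, and IL11, a fibrogenic cytokine, fell (-1.56). With a pseudocount of 10 the changes of CXCL11 and IL1RN were 2.82 and 2.13. The acute phase genes SAA1 (168, 203 and 173 with vector and 2240.5, 2021 and 1727 with deltaNp63beta) and SAA2 (56.7, 52.7 and 52 with vector and 711, 645 and 555 with deltaNp63beta), named after their values were seen, rose by 3.45 ± 0.12 and 3.53 ± 0.14. They resemble each other, overlap other genes on their strand, and SAA1 stands on 2 IDs alike. Complement C3 rose from 18737, 18334 and 17565 to 32241, 35435 and 38082 (0.95 ± 0.06).

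Interferon-stimulated genes rose in 19 and fell in 2 of 36, with a median of 0.47. The antiviral genes OASL (63.9, 55.7 and 66.6 with vector and 325, 305 and 323 with deltaNp63beta) and DDX60 (276, 314 and 338 with vector and 1048, 953 and 1138 with deltaNp63beta) rose by 2.34 ± 0.14 and 1.76 ± 0.10, and OAS1 and the RNA sensor IFIH1 by 1.16 and 0.96. IFI44L fell (-0.48 ± 0.09), and the list held 1 lower gene after leaving out vector replicate 2 or 3 or deltaNp63beta replicate 1, 2 or 3. MHC class I genes rose in 6 and fell in 1 of 15 tested, 46.7% called in all beside 40.2% of all genes. HLA-B was at 1217, 1262 and 1302 with vector and 2344, 2379 and 2259 with deltaNp63beta, and B2M was higher by 0.61 ± 0.05. CALR, the member that fell, was at -0.14 and not called under 8 other settings (adjusted p between 0.0567 and 0.142). Of 17 NF-kB factors and inhibitors, 8 rose and 2 fell. NFKBIA, which holds NF-kB in the cytoplasm, rose by 0.70, NFKBIZ by 0.62 and TNFAIP3 by 1.05 ± 0.07. The subunit RELA (-0.33) and the adaptor TRAF1 (-1.41) fell, but none of the list was called lower without vector replicate 1 or 2, and 1 without deltaNp63beta replicate 1. With a pseudocount of 10 the change of TRAF1 was -0.92.

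Most metabolic lists held more rises than falls, by small steps. Amino acid transporters rose in 14 and fell in 2 of 21 (1 without vector replicate 2 or 3 or deltaNp63beta replicate 2 or 3). SLC7A5 (28954, 26966 and 29619 in the vector libraries and 71242, 69666 and 75363 in the deltaNp63beta libraries) and SLC3A2 (7732, 7374 and 8284 in the vector libraries and 22668, 22836 and 22882 in the deltaNp63beta libraries) form the carrier of large neutral amino acids and rose by 1.34 ± 0.05 and 1.55 ± 0.05. Both were abundant in vector, and no libraries of the groups overlapped. The glycine carrier SLC6A9 and the cystine carrier SLC7A11 rose by 1.96 and 0.92. Genes of the integrated stress response, many of them ATF4 targets, rose in 15 and fell in 3 of 20 with a median of 0.60. Asparagine synthetase (ASNS) went from 566, 573 and 511 to 1865, 1890.0 and 1868 (1.77 ± 0.07), and PSAT1 and PHGDH of serine synthesis rose by 0.96 and 0.65. The members that fell were DDIT3 (-0.74 ± 0.16), ATF3 and ATF5 (-0.38 ± 0.07). Of 20 genes of the unfolded protein response, 5 were higher and 8 lower. Leaving out vector replicate 1, 2 or 3 or deltaNp63beta replicate 3 gave 3, 3, 2 and 3 higher, and leaving out vector replicate 1 gave 4 lower. Quantile normalization gave 2 higher and 8 lower, and limma without trend or robust fitting 1 higher and 5 lower. HSPA5, the endoplasmic chaperone BiP, fell from 48867, 48032 and 46459 to 33225, 34853 and 36510.1 (-0.46 ± 0.04), and HERPUD1 fell (-1.23).

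Genes of lipid synthesis that changed were mostly higher. Sterol synthesis genes rose in 13 of 24 with none lower (1 without deltaNp63beta replicate 3), among them FDPS (10006, 9453 and 9118 with vector and 19084, 20171 and 18439.7 with deltaNp63beta, 1.01 ± 0.05), which makes farnesyl diphosphate. Fatty acid genes rose in 13 and fell in 2 of 20. ACLY, FASN and SCD, which lead from citrate to oleate, rose by 0.92 ± 0.05, 0.76 ± 0.07 and 0.88 ± 0.05. FADS1 and GPAM fell, GPAM, the first enzyme of triglyceride synthesis, from 2339.9, 2616 and 2225 to 565, 599 and 634 (-1.99 ± 0.08). NRF2 and pentose phosphate genes rose in 18 and fell in 3 of 27, from AKR1B10 (9.21, 13.9 and 10.2 with vector and 401, 252 and 313 with deltaNp63beta), an aldo-keto reductase, to TKT, the transketolase, at 0.69 ± 0.04. TXNRD1, ABCC3 and FTH1 fell (-0.63, -0.70 and -0.36). Nuclear-encoded respiratory chain genes rose in 26 of 36 with none lower, by small amounts (median 0.27, ATP5F1C 0.57 ± 0.06). Of 30 genes of glycolysis and hypoxia, 9 rose and 6 fell (3 without vector replicate 1), with SLC2A1 and HK2 higher by 0.58 and 0.54 and ALDOA at -0.45.

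Lists of growth genes had small medians, though single G1 and S phase genes changed more. Mitosis genes rose in 13 of 25 with none lower (median 0.15), with CCNA2 at 0.40 ± 0.04 and CENPE at 0.43 ± 0.06. DNA replication genes fell in 8 and rose in 2 of 26 (median -0.10), 38.5% called in all beside 40.2% of all genes, and 1 rose without vector replicate 1 or deltaNp63beta replicate 2. E2F1 fell from 757, 686 and 735 to 334, 399 and 376 (-0.98 ± 0.09) and TYMS fell (-0.43). Among G1 regulators, 7 rose and 8 fell of 20 (median -0.01), 75% called in all. CCND2 went from 442, 437 and 386 to 1469, 1321 and 1439 (1.74 ± 0.08) and MYC rose by 0.54, while CCND1 and CCNE2 fell (-0.44 and -0.92). Ribosomal protein genes rose in 19 of 38 with a median of 0.17, and this count depended on the scaling, with 12 higher with equal totals, 9 after quantile normalization and none lower under either. Without vector replicate 2 or 3 or deltaNp63beta replicate 2 or 3, 11, 10, 10 and 34 ribosomal protein genes were higher. Mitosis counts under both scalings were 11 higher and 1 lower, and 1 was lower without vector replicate 1 or deltaNp63beta replicate 1 or 3.

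Genes with the largest changes did not all belong to these lists. Among those with a mean of at least 50, the largest rises were TMEM265, FKBPL, IGFL1, SERPINB3, MUC16, SPRR1B, ANKRD22, AKR1B10, GRHL3 and NIPAL4. The first 7 were under the minimum in every vector library and were tested through deltaNp63beta alone, so their rank is a description. TMEM265 was listed at 0 in every vector library and at 183, 180.2 and 83.3 with deltaNp63beta, and it overlaps 3 other genes on its strand. FKBPL, an FKBP-like cochaperone, went from 0, 1.11 and 1.04 to 197, 173 and 209, and MUC16, the mucin CA125, from 0.391, 7.82 and 0 to 145, 80.2 and 119. In the deltaNp63alpha libraries FKBPL was uneven, at 174, 5.69 and 6.13, and the source of this spread was not tested. CA2, a carbonic anhydrase, rose from 103, 99.3 and 77.2 to 1891, 1690.2 and 1796 (4.26 ± 0.12) and FXYD3, a sodium pump regulator, from 68.2, 63.9 and 98.1 to 1536, 1564 and 1201 (4.22 ± 0.18). With a pseudocount of 10 the changes of TMEM265, FKBPL and MUC16 were 3.91, 4.24 and 3.31, and that of ANKRD22 was 3.22.

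The largest falls were DGKI, SCG5, CHRNA9, POSTN, COL6A3, ALOX5AP, FN1, CGB8, GCNA and BHLHE41. DGKI and SCG5 were under the minimum in every deltaNp63beta library and were tested through vector alone, so their rank is a description. DGKI, a diacylglycerol kinase, went from 155, 154 and 145 to 3.11, 5.19 and 0.365 (-5.55 ± 0.54), and SCG5, a secretory granule chaperone, from 108, 90.5 and 121 to 0, 9.98 and 1.47 (-5.15 ± 0.77). The nicotinic receptor gene CHRNA9 went from 639, 523 and 574 to 18.8, 26.8 and 17.3 (-4.74 ± 0.20) and SEMA3B, a secreted semaphorin, from 1745, 1869 and 1727 to 204, 216 and 220.1 (-3.05 ± 0.08). With a pseudocount of 10 the changes of DGKI and SCG5 were -3.66 and -3.14. CGB8 belongs to a set of near-identical chorionic gonadotropin genes, so its value is uncertain. By loss in value the leaders after FN1 and TGFBI included ANPEP, PLEC, TIMP1, P4HB, ARF4 and VIM. ANPEP, an aminopeptidase of the cell surface, fell from 50276, 46894 and 46244 to 14545, 17372 and 17595 (-1.54 ± 0.07), and ARF4, a small GTPase of the Golgi, from 21913, 24497 and 25434 to 5337, 5319 and 5393 (-2.16 ± 0.05). By gain in value the leaders were KRT5, KRT17, MT-CO1, KRT81, EEF1A1, SLC7A5, S100A2, KRT6A, FASN and C3. Quantile normalization left MT-CO1 and EEF1A1 at a change of 0.

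The deltaNp63alpha libraries served to ask where deltaNp63beta differs, by a direct contrast of the isoforms in 1 fit of all 9 libraries. TP63 was at 4426, 6983 and 6961 with deltaNp63alpha and was not called between them (-0.22 ± 0.21, adjusted p = 0.479). Across 15108 genes, 2625 were higher (17.4%) and 2340 lower (15.5%) with deltaNp63beta than with deltaNp63alpha. Among the genes named because they passed against vector, 189 of 221 that rose were also called further from vector with deltaNp63beta, and 8 were called nearer. Of 150 that fell, 113 were further from vector and 7 nearer. These genes were chosen on the deltaNp63beta libraries, so the counts are a description.

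For some of the genes that rose most, the deltaNp63alpha libraries overlapped the vector libraries. GRHL3 stood at 23.2, 24.5 and 30.6 with deltaNp63alpha (deltaNp63beta minus deltaNp63alpha 4.79 ± 0.22, adjusted p = 7.19e-08) and CLDN1 at 220.2, 173 and 177 (3.86 ± 0.10, adjusted p = 1.47e-09). KRT17 stood at 15458, 17413 and 17258, between the others. S100A2 (80631, 91544 and 97313 with deltaNp63alpha, -0.59 ± 0.09, adjusted p = 0.000713) and COL17A1 (-0.40 ± 0.05, adjusted p = 9.89e-05) were higher with deltaNp63alpha, as were LAMA3 (-0.58 ± 0.04, adjusted p = 3.06e-06) and the heparan sulfate proteoglycan SDC1 (-0.41 ± 0.06, adjusted p = 0.000308). WNT5A (-0.01 ± 0.12, adjusted p = 0.95), SOX15 (0.05 ± 0.09, adjusted p = 0.721) and MMP14 (0.06 ± 0.06, adjusted p = 0.44) were not called between the isoforms.

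A further set lay on opposite sides of vector. TP73 stood at 14.8, 28.9 and 19 with deltaNp63alpha, below vector, and at 441, 308 and 319 with deltaNp63beta (4.06 ± 0.25, adjusted p = 5.42e-07). KRT16 stood at 128, 131 and 89.4 and 1629, 1591 and 1573 (3.79 ± 0.14, adjusted p = 1.38e-08), and NRARP at 92, 72 and 75.5 and 537, 433 and 514 (2.62 ± 0.14, adjusted p = 2.05e-07). The interleukin gene IL32 stood at 159, 202 and 161 and 824, 848 and 732 (2.20 ± 0.12, adjusted p = 2.41e-07). In the other direction, FOSL1 stood at 3654, 3922 and 3879 with deltaNp63alpha, above vector, and at 1176, 1264 and 1246 with deltaNp63beta (-1.63 ± 0.05, adjusted p = 4.79e-09). AREG (-1.48 ± 0.08, adjusted p = 1.33e-07) and DUSP6 (-1.33 ± 0.08, adjusted p = 3.5e-07) had the same order, and so did the laminin chain LAMB3 (-0.99 ± 0.06, adjusted p = 3.28e-07). No library of either isoform crossed the vector range for these genes.

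**Figure D5:**
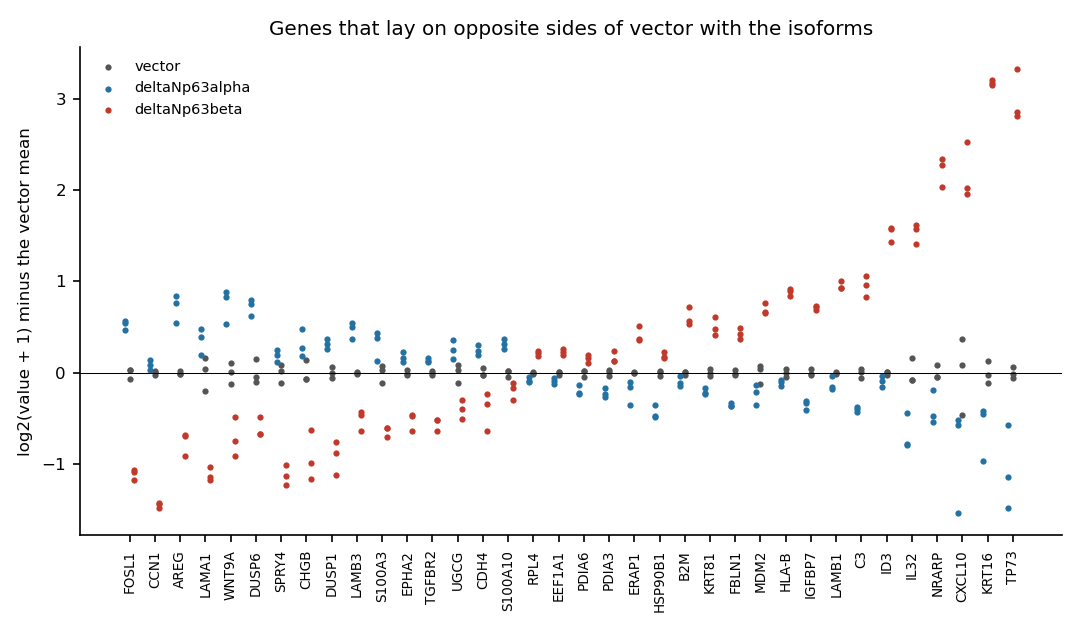
For each gene whose libraries lay above vector with 1 isoform and below it with the other, log2(value + 1) minus the vector mean in each vector (grey), deltaNp63alpha (blue) and deltaNp63beta (red) library. Genes run from the lowest to the highest difference between the isoforms, from FOSL1 to TP73.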

How the data were processed

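Polyadenylated RNA of 9 MCF10A libraries had been sequenced, and 6 entered this comparison. The authors deposited 1 table per library with a normalized signal per gene. Per the submitters' processing notes, kallisto 0.46.2, DESeq2 and GRCh38 were used, and which step gave the deposited values is not given in the sources used here. The values are not whole counts, so no count test was run.

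Groups came from the labels. Genes that reached 10 in 3 or more of the 6 libraries were fitted on log2(value + 1) with limma 3.58.1 (R 4.3.3, trend and robust), with Benjamini-Hochberg adjustment over 14621 genes and a threshold of 0.05. The isoform contrast came from 1 fit of 9 libraries. On simulated data with 14621 genes the fit recovered 82.1%, 92.5% and 98.5% of genes changed 1.5-, 2- and 4-fold, with 5 false calls. Only 67, 67 and 66 genes were changed there, drawn from genes above the minimum, while 40.2% were called in the real data. The simulated noise followed the level of a gene smoothly, without further spread between genes. Recovery and false calls in the real data can therefore differ. A pseudocount of 1 understates the changes of low genes.

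The 371 genes named comprise TP63, TP73, CDKN1A and 1 other fixed gene, the 15 largest rises and 15 largest falls among called genes with a mean of at least 50, the 10 largest gains and 10 largest losses in value, up to 5 members of each of 55 lists by adjusted p, members that changed against their list, and 32 chosen after their values were seen. Members and lists were chosen with earlier results of these data known. Of the 371, 98 overlap another gene on their strand, where fragments can be divided between neighbours, and 519 tested IDs hold values identical to another ID. Alternatives covered scaling, filter, pseudocount, model, replicate block and each library left out, and 2 restrictions to a subset of IDs were chosen after seeing the data. Some genes and lists tested are not reported here.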

Additional observations from a re-analysis of the deposited data

Results flagged for a closer look

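Among the 371 genes named, in 36 every deltaNp63alpha library lay on 1 side of the vector libraries and every deltaNp63beta library on the other, and the direct contrast of the isoforms in limma was called. The 371 were chosen on deltaNp63beta against vector and the other genes were not searched, so the count has no background and is a description. Values are log2 differences, deltaNp63beta minus deltaNp63alpha. The groups of 3 libraries were too small to test single libraries as outliers.

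Above vector with deltaNp63beta and below it with deltaNp63alpha were TP73 (4.06), KRT16 (3.79), CXCL10 (3.05), NRARP (2.62), IL32 (2.20), ID3 (1.62), C3 (1.35), LAMB1 (1.07), IGFBP7 (1.06) and HLA-B (0.99). Smaller differences of the same sign were MDM2 (0.93), FBLN1 (0.78), KRT81 (0.71), B2M (0.70), ERAP1 (0.62), HSP90B1 (0.62), PDIA3 (0.38), PDIA6 (0.35), EEF1A1 (0.32) and RPL4 (0.30). Against vector, CXCL10, PDIA3, PDIA6 and EEF1A1 lost their call under other settings. CXCL10 was under the minimum in every vector library, was not called without vector replicate 2 or deltaNp63beta replicate 1 or 3 (adjusted p between 0.0533 and 0.0764 in limma), and went from 2.17 to 0.89 with a pseudocount of 10. EEF1A1 showed no change after quantile normalization.

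Below vector with deltaNp63beta and above it with deltaNp63alpha were FOSL1 (-1.63), CCN1 (-1.53), AREG (-1.48), LAMA1 (-1.47), WNT9A (-1.46), DUSP6 (-1.33), SPRY4 (-1.31), CHGB (-1.24), DUSP1 (-1.23) and LAMB3 (-0.99). S100A3 (-0.95), EPHA2 (-0.70), TGFBR2 (-0.69), CDH4 (-0.65), UGCG (-0.65) and S100A10 (-0.50) completed the set. The calls of WNT9A, CHGB and S100A10 against vector were lost under other settings. TP63 itself was not called between the isoforms, and whether its amount bears on these differences was not tested.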

How the results depend on the processing

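The numbers of genes called higher and lower, 3139 and 2740, were 496 and 348 when limma tested for a change beyond 1.5-fold. Leaving out 1 library in turn gave between 2627 and 2908 higher and between 2169 and 2572 lower. The replicate block gave 2914 and 2522. Same-numbered libraries had residual correlations of -0.003, -0.060 and 0.032, and pairs with different numbers lay between -0.096 and 0.098. With 3 libraries a group, these values cannot show whether same-numbered libraries shared a preparation. The blocked values are not read as paired results. Of the 371 genes named, 14 were not called with the block, and between 16 and 26 with 1 library left out. No named gene changed direction.

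Scaling moved the balance. Calls were 53.4% higher as reported, 47.8% with equal totals (2803 higher, 3063 lower) and 49.2% after quantile normalization (2865 and 2961), while median-of-ratios gave 3035 and 2834. Tests with no filter called 3006 and 2673 of 24841. Depth limits scarce genes, of which 15.7% were called below a mean of 50.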
